A study of Mus musculus with 2 samples.

Results

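The 46 genes described here encode the proteins that repair damaged DNA, recombine it and signal that it is damaged. They were chosen by function, as repair and checkpoint genes known to be expressed in somatic cells. Of the 46, 43 had at least 1 tag that could be assigned to them, among 14450 genes with such a tag in the series. They were measured by digital gene expression (DGE) tag profiling, with 1 library for each line. GC-1spg and GC-2spd (ts) are mouse cell lines kept in the same DMEM medium with serum. GC-1spg came from type B spermatogonia of a mouse aged 10 days and carries the plasmid pSV3-neo. GC-2spd (ts) was derived from spermatocytes of a mouse aged 6 weeks and carries the SV40 large T antigen. The plasmid pSV3-neo also carries the early region of SV40, so T antigen is common to both lines, and 1 library per line leaves every difference without a replicate check. Large T antigen is known to bind p53 and the retinoblastoma proteins, which limits both lines as models of a germ cell. The authors do not explain the (ts) in the name GC-2spd (ts), and the p53 status of the lines was not compared.

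Cells mend DNA by several routes. Homologous recombination copies the lost sequence from the sister chromatid, with MRE11, RAD50 and NBN (NBS1) opening the break and BRCA2 and PALB2 preparing it for strand exchange. End joining rejoins broken ends through Ku, DNA-PKcs and ligase IV, while mismatch repair, base excision repair and nucleotide excision repair replace wrong, modified or bulky bases on one strand. The kinases ATM and ATR, with their effectors CHEK2 and CHEK1, stall the cell cycle until the lesion is gone. In the testis the same machinery is used by spermatocytes to repair the breaks of meiosis, together with proteins made mainly there.

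A DGE tag is CATG, the site cut by *Nla*III, with the 17 bases that follow it. Each polyadenylated transcript yields 1 tag in principle, so the level in tags per 1000000 clean tags (TPM) is not divided by transcript length. The libraries held 5072149 clean tags for GC-1spg and 4726808 for GC-2spd (ts), and 1 copy was worth 0.197 TPM and 0.212 TPM. A gene was called when the two-sided Audic-Claverie test on its tags gave a false discovery rate (FDR) of at most 0.001 over all genes and the absolute log2 ratio of GC-2spd (ts) over GC-1spg was at least 1. That test compares the 2 libraries, not the lines, and the intervals given below are exact 95% intervals that cover counting error only.

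In all, 7 members were called higher in GC-2spd (ts). They were *Brca2*, *Rad51ap1* and *Rad54l* of strand exchange, *Msh3* and *Exo1* of mismatch repair, and the checkpoint kinases *Atr* and *Chek1*. Another 3 were called lower, namely the recombination gene *Xrcc2*, the uracil glycosylase *Ung* and the nucleotide excision endonuclease *Ercc5*. As shares of the 43 members with a tag these are 16.3% and 6.98%, beside a background over all 14450 genes of 11.7% called higher and 7.84% called lower, so the numbers of calls do not set the members apart. The other 33 members with a tag were not called. When edgeR's exact test was run with an assumed biological coefficient of variation (BCV) of 0.2, a spread that 2 single libraries cannot measure, 0 members were called in either direction.

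The most abundant tag of each called member is shown because these are the sequences that were counted. They are written 5′ to 3′ as deposited, with the *Nla*III site in capitals.
Brca2: CATGcagcctccacttgctgt
Rad51ap1: CATGtgtacgtgttgctaaaa
Rad54l: CATGatgtttgcccaaaattt
Xrcc2: CATGctcgcttgttcccttca
Msh3: CATGaagtgtgaagggctaaa
Exo1: CATGatgtggagaacaagcca
Ung: CATGcttttctgaaagacaat
Ercc5: CATGggaggcaaggctgtgtg
Atr: CATGtgcattacctcatacaa
Chek1: CATGaatgaggccagccacaa

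All 10 matched their gene without a mismatch. Among the 43 members with a tag, the most abundant tag lay in a 3′ UTR for 30, in a coding exon for 12 and in a 5′ UTR for 1, counted in the longest coding transcript of GENCODE release M21. For 38 it was the last CATG site of at least 1 annotated transcript, which is where the method reads most often.

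**Figure D1:**
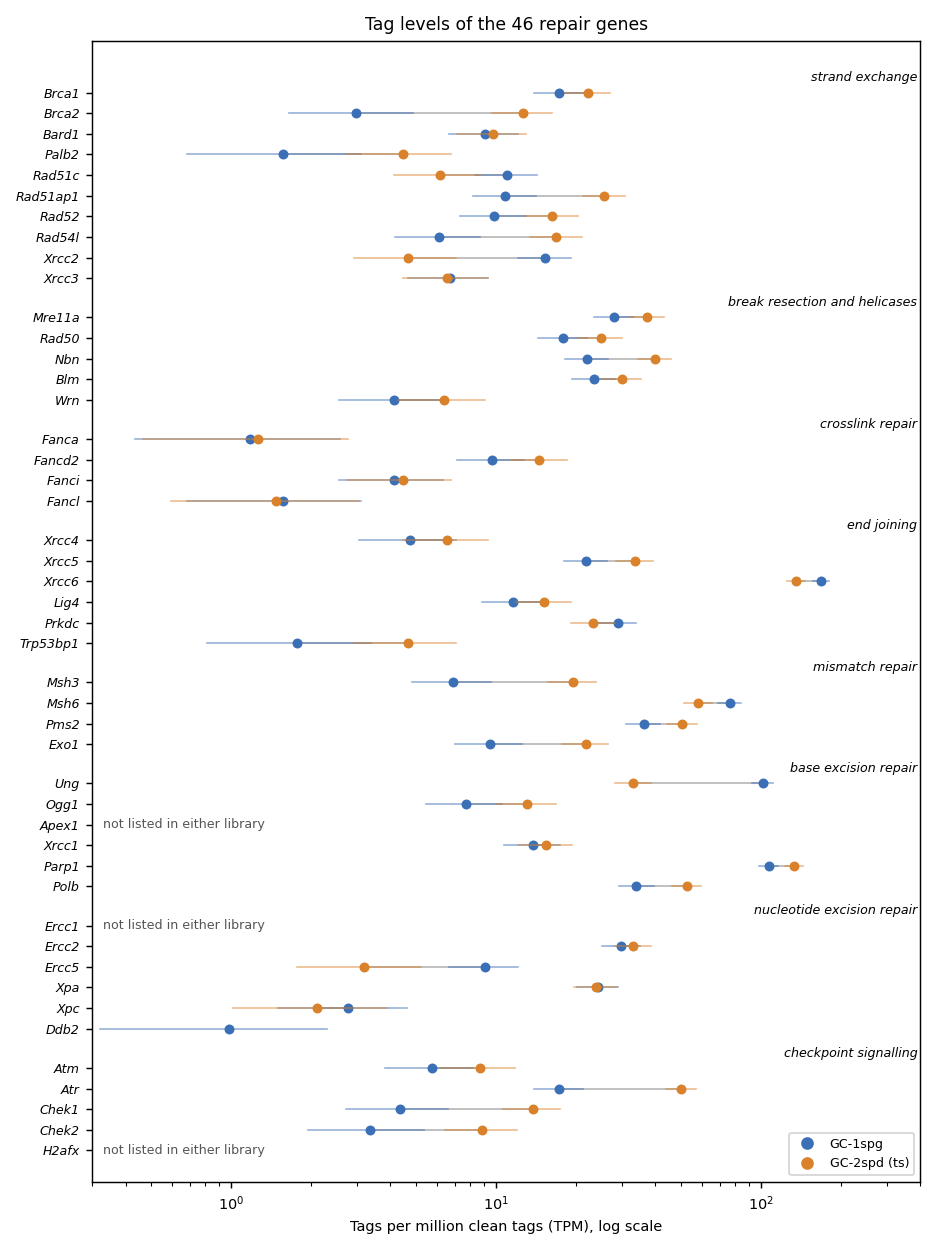
Tags per 1000000 clean tags (log axis) of the 46 members, grouped by role, in GC-1spg (blue) and GC-2spd (ts) (orange). Thin bars are exact 95% Poisson intervals, which cover counting error only; *Xrcc6*, *Parp1*, *Ung* and *Msh6* reach the highest levels in GC-1spg, and 3 members are listed in neither library.

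The members were mostly weakly expressed. Their median level was 9.86 TPM over the 43 listed in GC-1spg against 15.9 TPM over the 42 listed in GC-2spd (ts), beside 11.1 TPM and 13.5 TPM over all listed genes. Levels above 10 TPM were found for 21 members in GC-1spg against 27 in GC-2spd (ts). *Xrcc6*, which encodes the Ku70 subunit of the end-binding Ku dimer, had the highest level in GC-1spg, 169 TPM (interval 157 to 180). *Parp1*, the sensor of single-strand breaks, followed with 107 TPM (98.2 to 117) and *Ung* with 102 TPM (93.0 to 111), and the intervals of these 2 overlapped. In GC-2spd (ts) *Xrcc6* stood at 136 TPM (126 to 147) and *Parp1* at 134 TPM (124 to 145), again with overlapping intervals, while *Ung* stood at 33.0 TPM (28.0 to 38.6), above the median of the members. The sum over all members was 931 TPM in GC-1spg compared with 1045 TPM in GC-2spd (ts).

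Across the 42 members listed in both libraries the median log2 ratio was 0.45, beside 0.16 over the 11373 genes listed in both. With a trimmed mean of M values (TMM) scaling the medians were 0.27 over the members and -0.01 over all genes. Under it the calls of the members stayed at 7 and 3. Over all 14450 genes, 1292 were called higher and 1443 lower with it, against 1684 and 1133 without it. The same scaling changed the share of higher calls among all called genes from 59.8% to 47.2%. Ratios above 0 were found for 31 of the 42 members, 73.8%, and for 58.6% of all genes. The exact interval lay above 0 for 20 members, below 0 for 6 and held 0 for 16. Such intervals were not counted over all genes, whose median was itself above 0 without TMM scaling. These counts therefore do not set the members apart.

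**Figure D2:**
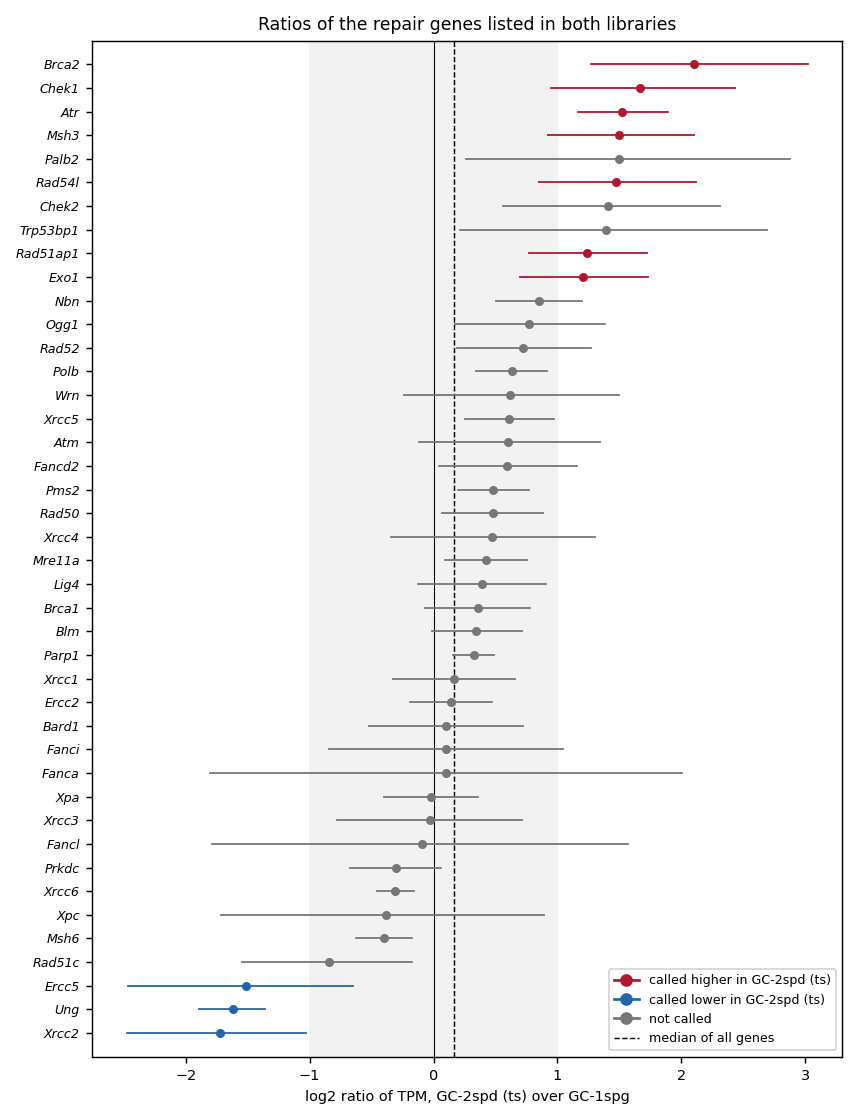
log2 ratio of TPM, GC-2spd (ts) over GC-1spg, of the 42 members listed in both libraries, with exact 95% intervals for counting error. Red and blue mark the 7 members called higher and the 3 called lower, the grey band spans ratios below the threshold of 1, and the dashed line is the median over all genes (0.16).

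**Figure D3:**
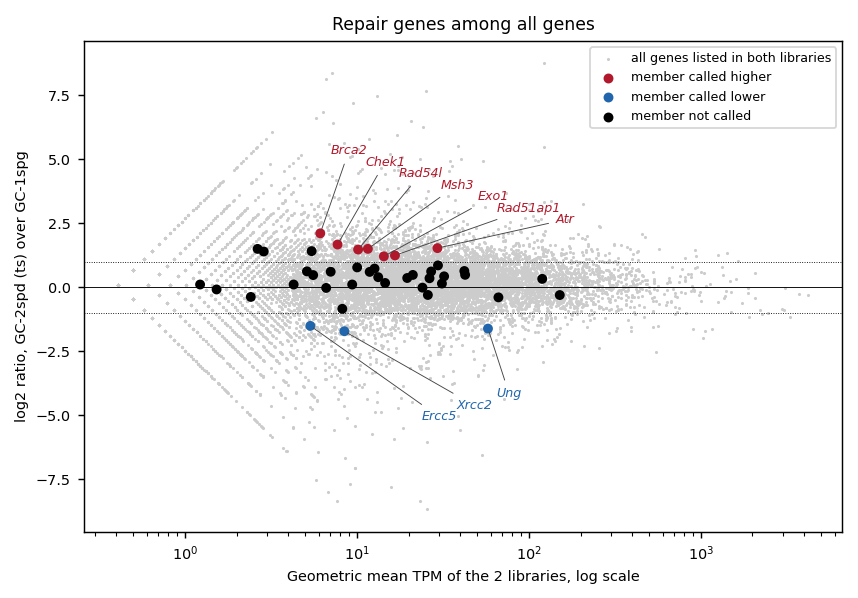
Ratio against level (log axis) for the 11373 genes listed in both libraries (grey) and the members (coloured and black). The called members lie at the lower and middle levels of the cloud, and dotted lines mark an absolute log2 ratio of 1.

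Strand exchange held the widest spread, with 3 of its 10 members called higher and 1 called lower. *Brca2*, which acts on resected DNA, had 15 tags in GC-1spg against 60 in GC-2spd (ts), 2.96 and 12.7 TPM. This is the largest ratio among the members, 2.10 on the log2 scale (interval 1.27 to 3.02, Audic-Claverie FDR 1.57e-07). Its tags were scattered along the 10724-base transcript, as shown further below. *Palb2*, the bridge between BRCA1 and BRCA2, had 8 and 21 tags at a log2 ratio of 1.49 (0.26 to 2.88) that was not called. *Brca1*, the ubiquitin ligase that directs breaks to recombination, had 88 and 105 tags and *Bard1*, its ring partner, 46 and 46. Neither of those was called, and the share of *Bard1* in the tags of the pair was 34.3% (exact interval 26.3 to 43.0) in GC-1spg and 30.5% (23.2 to 38.5) in GC-2spd (ts).

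The other two genes of strand exchange called higher were *Rad51ap1* and *Rad54l*. *Rad51ap1*, which stimulates the capture of duplex DNA, had 55 and 121 tags, 10.8 and 25.6 TPM, with a log2 ratio of 1.24 (0.77 to 1.73, Audic-Claverie FDR 2.99e-07). *Rad54l*, the translocase that remodels the paired strands, had 31 and 80 tags, 6.11 and 16.9 TPM, with a log2 ratio of 1.47 (0.85 to 2.12, Audic-Claverie FDR 2.65e-06). The main *Rad51ap1* tag lies in the 3′ UTR at chr6:126923627-126923647 of GRCm38, minus strand, and gave 52 and 102 of the copies. The main *Rad54l* tag, at chr4:116097025-116097045 on the minus strand, also lies in the 3′ UTR and gave 18 and 50 copies. A different *Rad54l* tag, in the exon of a transcript with no coding region, gave 8 and 30. *Rad52*, which anneals single strands, had 50 and 77 tags and was not called (log2 ratio 0.72, 0.19 to 1.27).

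*Xrcc2*, *Rad51c* and *Xrcc3*, which act in homologous recombination, were not all called. *Xrcc2* had 78 tags in GC-1spg against 22 in GC-2spd (ts), 15.4 and 4.65 TPM. It was 3.30-fold higher in GC-1spg (log2 ratio -1.72, -2.48 to -1.03, Audic-Claverie FDR 3.62e-07), and 61 and 19 of its tags came from the 3′ UTR site at chr5:25689964-25689984, minus strand. *Rad51c*, which sits with XRCC2 in the BCDX2 complex and with XRCC3 in the CX3 complex, had 56 and 29 tags at a log2 ratio of -0.85 (-1.55 to -0.18) that stayed below the threshold. *Xrcc3* had 34 and 31 tags (-0.03, -0.78 to 0.71). *Xrcc3* made up 37.8% (27.8 to 48.6) of the tags of *Xrcc3* and *Rad51c* in GC-1spg and 51.7% (38.4 to 64.8) in GC-2spd (ts), and those intervals overlap.

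None of the 5 genes of break resection and of the RecQ helicases was called. All 5 had a ratio above 0, and the median log2 ratio was 0.48. *Nbn*, the subunit that recruits ATM to the break, came closest, with 112 and 188 tags, 22.1 and 39.8 TPM. Its FDR was 3.14e-06 in the Audic-Claverie test, but the log2 ratio of 0.85 (0.50 to 1.20) missed the threshold of 1. *Mre11a*, the nuclease of the same complex, had 141 and 176 tags (0.42, 0.09 to 0.75) and *Rad50*, its ATPase, 91 and 118 (0.48, 0.07 to 0.89). The share of *Rad50* in the tags of *Rad50* and *Mre11a* was 39.2% (32.9 to 45.8) in GC-1spg and 40.1% (34.5 to 45.99) in GC-2spd (ts), almost the same. The helicase genes *Blm* (119 and 141 tags) and *Wrn* (21 and 30), mutated in Bloom and Werner syndromes, had intervals that held 0.

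The 4 crosslink repair genes were not called either. *Fancd2*, which is monoubiquitinated at stalled forks, had 49 and 69 tags (0.60, 0.05 to 1.15), and its partner *Fanci* had 21 in each library. *Fanca*, of the Fanconi core complex, had 6 and 6 tags, and *Fancl*, its ubiquitin ligase, 8 and 7. At such counts the interval of the *Fanca* ratio ran from -1.80 to 2.005, so a difference of that size was not detectable with these tags. Further tags of *Fanca*, *Fanci* and *Fancl* are shared with another gene and were not counted here. With them *Fanca* had 137 and 201 tags, as described below.

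Among the end-joining genes, the subunits of the Ku dimer had ratios of opposite sign. *Xrcc5*, which encodes Ku80, had 111 and 158 tags, 21.9 and 33.4 TPM (0.61, 0.25 to 0.97). *Xrcc6* had 855 and 643 tags (-0.31, -0.46 to -0.16). Neither was called, but the share of *Xrcc5* in the tags of the pair was 11.5% (9.55 to 13.7) in GC-1spg and 19.7% (17.02 to 22.7) in GC-2spd (ts), and those intervals do not overlap. *Lig4* and *Xrcc4*, which form the ligase complex, showed no such difference. *Lig4* had 59 and 72 tags and *Xrcc4* 24 and 31, and *Lig4* gave 71.1% (60.1 to 80.5) and 69.9% (60.1 to 78.5) of the pair. *Prkdc*, the catalytic subunit of DNA-PK, had 146 and 110 tags (-0.31, -0.68 to 0.06). *Trp53bp1*, which shields ends from resection, had 9 and 22 unambiguous tags, but most of its tags are shared with another gene, as described below.

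In the recognition of mismatches MSH6 serves for base mismatches and MSH3 for larger loops, and the tags of their genes had ratios of opposite sign. *Msh3* had 35 tags in GC-1spg compared with 92 in GC-2spd (ts), 6.90 and 19.5 TPM, with a log2 ratio of 1.50 (0.92 to 2.10, Audic-Claverie FDR 2.61e-07). *Msh6* had 388 and 274 tags, 76.5 and 58.0 TPM, with a log2 ratio of -0.40 (-0.63 to -0.17) that was not called. *Msh6* was thus the more abundant in both libraries, but the share of *Msh3* in the tags of the pair was 8.27% (5.83 to 11.3) in GC-1spg and 25.1% (20.8 to 29.9) in GC-2spd (ts).

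Nearly all *Msh3* tags, 35 and 90, came from 1 site in the 3′ UTR at chr13:92211965-92211985, minus strand. The *Msh6* tags came mainly from overlapping CATG sites in the coding part of exon 9 of 10, so that the first of the following tags holds the CATG of the second and both share 17 bases. They are shown because 1 place in the transcript is counted as separate tags, with the *Nla*III site of each in capitals.
Msh6, upstream site: CATGcatggtagaaaatgaat
Msh6, downstream site: CATGgtagaaaatgaatgtga
The upstream tag had 251 and 157 copies and the downstream tag 110 and 96. The upstream tag made up 64.7% (59.7 to 69.4) of the *Msh6* tags in GC-1spg and 57.3% (51.2 to 63.2) in GC-2spd (ts). With the last CATG site only, which leaves the upstream tag out, *Msh6* had 115 and 102 tags. The log2 ratio was then -0.071 (-0.47 to 0.33), with an interval that held 0.

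The remaining mismatch repair members were higher in GC-2spd (ts) to different extents. *Exo1*, the exonuclease that removes the mismatched strand, had 48 and 103 tags, 9.46 and 21.8 TPM, with a log2 ratio of 1.20 (0.70 to 1.73, Audic-Claverie FDR 4.84e-06). Its main tag alone had 48 and 71 copies, and its other tags were listed only in GC-2spd (ts), as described below. With the last CATG site only the counts were 48 and 94, with a log2 ratio of 1.07, and *Exo1* stayed called. *Pms2*, the nicking subunit of MutL alpha, had 183 and 238 tags (0.48, 0.20 to 0.77) and was not called.

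Base excision repair contained the call with the most tags. *Ung*, the glycosylase that removes uracil from DNA, had 515 tags in GC-1spg against 156 in GC-2spd (ts), 102 and 33.0 TPM. It was 3.08-fold higher in GC-1spg, with a log2 ratio of -1.62 (-1.89 to -1.36, Audic-Claverie FDR 3.96e-39), and 498 and 151 of its copies came from the last CATG site, in the 3′ UTR at chr5:114139210-114139230, plus strand. The other base excision genes with a tag were not called. *Polb*, the gap-filling polymerase, had 172 and 248 tags (0.63, 0.34 to 0.92), *Parp1* 543 and 633 (0.32, 0.16 to 0.49) and the 8-oxoguanine glycosylase gene *Ogg1* 39 and 62 (0.77, 0.17 to 1.39). These 3 intervals lie above 0 but the ratios are below the threshold. *Xrcc1*, the scaffold of the pathway, had 70 and 73 tags (0.16, and -0.011 with TMM scaling).

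Nucleotide excision repair had the lowest median log2 ratio of the 8 roles, -0.20 over 4 genes listed in both, and 1 of its genes was called. *Ercc5*, which encodes the XPG endonuclease that cuts 3′ of the lesion, had 46 tags in GC-1spg against 15 in GC-2spd (ts), 9.07 and 3.17 TPM, with a log2 ratio of -1.51 (-2.46 to -0.65, Audic-Claverie FDR 5.67e-04). This call rests on tags outside the main site. In the coding part of the last exon, at chr1:44180936-44180956 on the plus strand, 34 and 15 copies were found, and with the last CATG site only the counts were 38 and 15, with a log2 ratio of -1.24 (Audic-Claverie FDR 0.00921), which is not a call. With protein-coding transcripts only the counts were 40 and 15 (log2 ratio -1.31) and the call was lost as well. *Ercc2*, the XPD helicase, had 151 and 155 tags, *Xpa*, which verifies the lesion, 123 and 113, and the lesion sensor *Xpc* 14 and 10, all with intervals that held 0.

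The checkpoint genes had the highest median ratio of the 8 roles, 1.47 over 4 genes. That median includes *Chek2*, whose ratio depends on the matching, as described below. *Atr*, the kinase that answers single-stranded DNA at stalled forks, had 88 tags in GC-1spg compared with 236 in GC-2spd (ts), 17.3 and 49.9 TPM, with a log2 ratio of 1.52 (1.17 to 1.90, Audic-Claverie FDR 4.28e-18). *Chek1*, its effector kinase, had 22 and 65 tags, 4.34 and 13.8 TPM, with a log2 ratio of 1.66 (0.95 to 2.43, Audic-Claverie FDR 3.88e-06). The ATR and CHEK1 genes were thus called in the same direction. *Atm*, the kinase that answers double-strand breaks, had 29 and 41 tags (0.60, -0.12 to 1.34), and its effector gene *Chek2* had 17 and 42 unambiguous tags (1.41, 0.56 to 2.31) without a call. The share of *Atr* in the tags of *Atr* and *Atm* was 75.2% (66.4 to 82.7) in GC-1spg and 85.2% (80.5 to 89.2) in GC-2spd (ts), with intervals that overlap. The pairs for these shares were chosen after their values were seen.

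The main *Atr* tag lies in the coding part of exon 47 of 47, 238 bases from the end of the transcript, at chr9:95951544-95951564 on the plus strand, and gave 73 and 228 copies. The main *Chek1* tag lies in the 3′ UTR at chr9:36709893-36709913 on the minus strand and gave 13 and 47. At a second *Chek1* site nearer to the end of that transcript, 293 bases from it, 7 and 8 copies were found.

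*Chek2* was read through a tag of which the libraries held different forms. The tag at its last CATG site, chr5:110874094-110874114 on the plus strand and in the 3′ UTR, was listed in the reference form and in a form with 1 other base. Both are shown because the matching counted them differently, with the base that differs in capitals.
Chek2, reference form: catgtacacagaAacacataa
Chek2, other form: catgtacacagaCacacataa
The substitution is A13C, counted from 1 at the 5′ end of the tag, at position 110874106 of chromosome 5. The reference form had 0 copies in GC-1spg against 30 in GC-2spd (ts), and the other form 63 and 24. The other form was 100% (exact interval 94.3 to 100) of the copies at this site in GC-1spg and 44.4% (30.9 to 58.6) in GC-2spd (ts). An overlapping tag 8 bases upstream covers the same base as its last one, and there the changed form (A21C) had 13 copies in GC-1spg against 0 in GC-2spd (ts).

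Since the other form is also 1 base away from an antisense tag of *Ythdc1*, it was ambiguous and stayed out of the count of *Chek2*. With sense matches preferred over antisense matches, *Chek2* had 80 tags in GC-1spg compared with 66 in GC-2spd (ts), with a log2 ratio of -0.18 (-0.67 to 0.31). With exact matches only it had 4 and 42, with a log2 ratio of 3.49, and was called higher. The sign and the call of *Chek2* thus follow from how this 1 base is treated. No other member had a one-base form of this kind with 10 copies or more. Over all genes, 460 one-base forms had at least 20 copies in a library and at least 20 copies together with the reference form in each library. Of these, 102 made up at least 90% of the copies in GC-1spg against at most 10% in GC-2spd (ts), and 0 showed the opposite. The form of *Chek2* was not among the 102. It was of the kind with at least 90% in GC-1spg and both forms in GC-2spd (ts), which held 36. The reverse, both forms in GC-1spg and at least 90% in GC-2spd (ts), held 8.

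Several members end close to a gene on the other strand, and a tag that is sense to the member and antisense to that neighbour was not counted. With sense matches preferred, 10 members gained tags. In this matching, 11.6% of the 15280 genes tested were called higher and 7.77% lower.

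**Figure D4:**
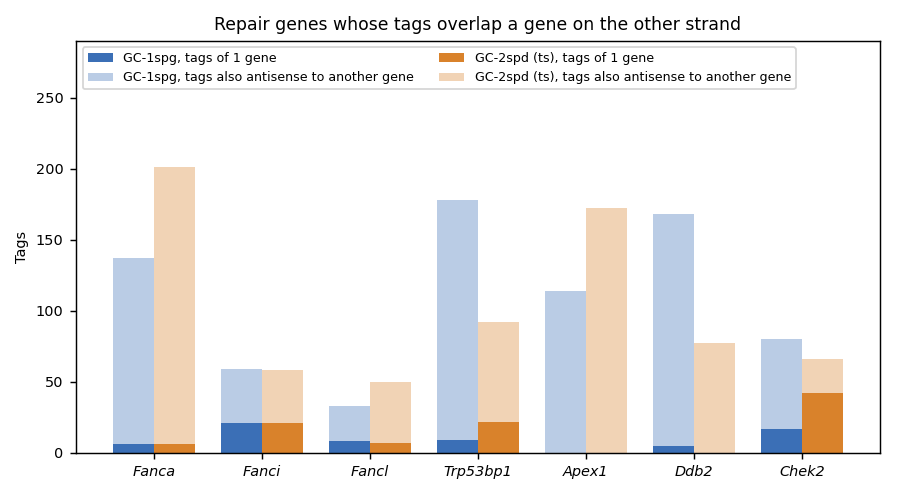
Tags of the 7 members whose count grew at least 1.5-fold when tags that are also antisense to another gene were counted. Dark bars are tags of 1 gene and pale bars the shared tags, in GC-1spg (blue) and GC-2spd (ts) (orange); *Trp53bp1* and *Chek2* are higher in GC-2spd (ts) in dark bars and lower in the whole bars.

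*Apex1*, the endonuclease that cuts at sites without a base, was listed in neither library by unambiguous tags because its only abundant tag is antisense to *Pip4p1*. That tag had 114 copies in GC-1spg against 172 in GC-2spd (ts), 22.5 and 36.4 TPM, with a log2 ratio of 0.70 (0.35 to 1.05) without a call. *Ddb2*, which recognises ultraviolet lesions, had 5 tags in GC-1spg compared with 0 in GC-2spd (ts), but 168 and 77 with the tags shared with *Acp2*. Counted so, it was the only further call among the members, with a log2 ratio of -1.02 (-1.43 to -0.63, Audic-Claverie FDR 4.98e-07). *Trp53bp1* turned direction, from 9 and 22 tags to 178 and 92 with the tags shared with *Tubgcp4*, with a log2 ratio of -0.85 (-1.23 to -0.48). The main one of these lies in the 3′ UTR at chr2:121198305-121198325, where it had 147 and 57 copies.

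The shared tags also set the level of the Fanconi genes. *Fanca* had 137 and 201 tags when the tag shared with *Zfp276* was counted (0.65, 0.33 to 0.98), *Fanci* 59 and 58 with *Polg*, and *Fancl* 33 and 50 with *Vrk2* (0.70, 0.04 to 1.38). None of these 3 was called in either matching. These tags are shown because the levels of *Apex1*, *Ddb2*, *Trp53bp1* and *Fanca* rest on them.
Apex1: CATGatgaatgcccgctctaa
Ddb2: CATGgccaataaaagcatatc
Trp53bp1: CATGgaccttgtacatagttt
Fanca: CATGgggctcttgttacacta

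*Ercc1* and *H2afx* were out of reach for another reason. The last CATG of *Ercc1*, the partner of the endonuclease XPF, stands 11 bases before the end of its transcript, so that its tag runs into the poly(A) tail. In the following tag the tail is in capitals.
Ercc1: catgcccaggcAAAAAAAAAA
It had 185 copies in GC-1spg against 182 in GC-2spd (ts). With transcripts extended by poly(A), an alternative chosen after seeing the data, *Ercc1* had 187 and 185 tags, 36.9 and 39.1 TPM, with a log2 ratio of 0.09 (-0.21 to 0.39). *H2afx*, the histone variant phosphorylated beside breaks, has no CATG in its 1384-base transcript and cannot be measured by this method.

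The place of the tags along the gene differed between the libraries for 3 members, by the rule that the share of the main tag differed by at least 20 percentage points with at least 20 tags in each library. They are shown with the tag that made the difference.
Exo1, second tag: CATGgagactgaagcaaatgg
Rad51c, main tag: CATGgagctgtttccctagct
Rad51c, second tag: CATGttgtctctttatagcaa
Atm, main tag: CATGtgcctaacctgtaggag
Atm, second tag: CATGgatacagtgaaagactc
The main *Exo1* tag lies in coding exon 14 of 15, at chr1:175905919-175905939 and 5131 bases from the end of the 7796-base transcript, and gave 100% (92.6 to 100) of the *Exo1* tags in GC-1spg and 68.9% (59.1 to 77.7) in GC-2spd (ts). The second, 116 bases from that end at chr1:175913374-175913394, had 0 copies of 48 in GC-1spg against 23 of 103 in GC-2spd (ts), 22.3% (14.7 to 31.6). The main tags of *Exo1* and *Rad51c* each lie at the last CATG site of another annotated transcript of their gene. Whether the libraries differ in the transcripts they hold was not tested.

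**Figure D5:**
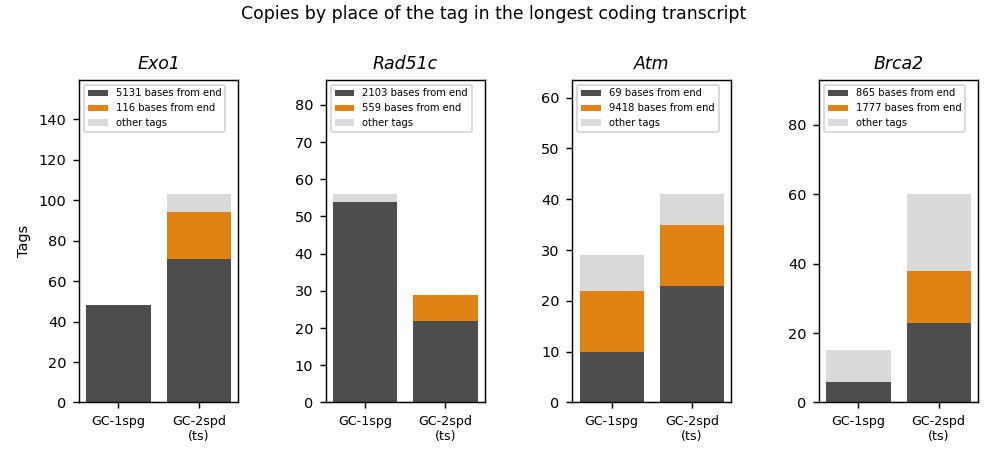
Copies of the 2 most abundant tags (dark grey and orange) and of all other tags (light grey) of *Exo1*, *Rad51c*, *Atm* and *Brca2* in each library, with the distance of each tag from the end of the longest coding transcript. The tag 116 bases from the end of *Exo1* has 0 copies in GC-1spg compared with 23 in GC-2spd (ts).

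*Rad51c* showed a similar difference on fewer tags. Its main tag, 2103 bases from the end of the 3944-base transcript, gave 96.4% (87.7 to 99.6) and 75.9% (56.5 to 89.7), with intervals that overlap. A tag 559 bases from that end had 0 copies in GC-1spg against 7 in GC-2spd (ts). For *Atm* the tag 69 bases from the end had 10 of 29 copies in GC-1spg against 23 of 41 in GC-2spd (ts), 34.5% (17.9 to 54.3) and 56.1% (39.7 to 71.5), with intervals that overlap. The second *Atm* tag, in coding exon 4 of 62, had 12 copies in each.

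*Brca2* did not meet the rule and is given because it has the largest ratio, chosen after its values were seen. The main tag, in exon 26 of 27 at chr5:150567712-150567732 on the plus strand, had 6 and 23 copies, and the tag in exon 21, 1777 bases from the end, 0 and 15. The main tag held 40.0% (16.3 to 67.7) and 38.3% (26.1 to 51.8) of the *Brca2* tags. The next tags by copies, in exons 10 and 11, had 4 and 3 copies and 3 and 3, which is no higher in GC-2spd (ts).

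The promoters of the members were searched for letters that E2F and NF-Y sites often have, in RefSeq windows of GRCm38.p6 that run from 250 bases before to 50 after each start site. E2F factors, held back by the retinoblastoma proteins, are known to switch on many genes of replication and repair. A window was available for 35 members, not for *Exo1* or *Xrcc2* among the called ones. TTTCCCGC or TTTGGCGC, on either strand, was found in 7 of the 35, 20%, beside 1.80% of 27025 genes with a window and 3.37% of the 10477 among them that had a listed tag. CCAAT, on either strand, was found in 20 of 35, 57.1%, beside 41.1% of all genes and 43.1% of those with a listed tag. It was found in 2 of the 6 members called higher, 1 of the 2 called lower and 17 of the 27 not called. The 7 matches to the E2F letters are shown with 10 bases on each side, as read along the gene, with the match in capitals.
Brca2: ttaggccacaGCGGGAAAcagacacaca
Bard1: cgccgctcagTTTCCCGCtcaggaagtt
Rad51c: ccccgcgaggGCGGGAAAagcaaggggt
Xrcc6: gggggtggaaGCGGGAAAtgcgagtggg
Msh3: tgccgtcaagTTTGGCGCgaaatcgcag
Msh6: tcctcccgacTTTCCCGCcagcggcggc
Chek2: gggattagccGCGGGAAAccaagacgtc
Of the 6 called-higher members with a window 2 held a match, of the 2 called lower 0, and of the 27 not called 5. Over all genes with a window, 52 of the 1278 called higher and 24 of the 799 called lower held a match. Whether the letters go with the calls was not tested, and the groups of 6 and 2 members are too small to show it. The *Msh3* and *Msh6* windows both held one, and the ratios of those genes had opposite signs. A match of letters is not a measured binding site.

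The other genes of these pathways, 107 of which had a tag, gave 13 calls higher (12.1%) and 4 lower (3.74%) and a median log2 ratio of 0.34. With TMM scaling these counts were 7 and 7. By role, checkpoint signalling had 4 of 16 called higher and 1 lower, base excision repair 3 of 13 and 0, Fanconi anemia 2 of 12 and 0, and damage tolerance and reversal 2 of 11 and 1. Homologous recombination had 1 of 22 called higher and 0 lower, nucleotide excision repair 1 and 1 of 16, end joining 0 and 1 of 13, and mismatch repair 0 of 4.

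The largest ratio was that of *Fancf*, of the Fanconi core complex, with 4 tags in GC-1spg compared with 60 in GC-2spd (ts), with a log2 ratio of 4.01 (2.58 to 5.93). *Rbbp8*, which encodes the resection factor CtIP, had 39 and 127 tags (1.81), and *Rev3l*, the catalytic subunit of polymerase zeta, 45 and 120 (1.52). *Neil3*, a glycosylase for oxidised bases, had 24 and 60 tags (1.42), and *Ercc3*, the XPB helicase, 73 and 170 (1.32). All 5 were called higher.

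Of those called lower, *Alkbh3*, which reverses alkylation, had 214 and 76 tags (-1.39). *Rad1*, a ring subunit of the 9-1-1 clamp that activates ATR, had 384 and 152 tags at a log2 ratio of -1.24. Its direction was thus opposite to that of *Atr* and *Chek1*, while *Rad17*, the loader of that clamp, was called higher with 51 and 103 tags. *Gtf2h3*, a subunit of TFIIH, had 261 and 121 tags (-1.01).

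Genes of proliferation and of the p53 response were listed beside the members, since both are known to move with repair genes. Of 18 proliferation genes 2 were called higher, *Mki67* with 295 and 939 tags (1.77) and *Ccna2* with 107 and 229 (1.20), and 0 lower. The median log2 ratio of this list was 0.36. The part of proliferation in the levels of the repair genes was not tested. Of 21 p53 target genes 3 were called higher, *Tnfrsf10b* (1.91), *Zmat3* (1.51) and *Plk2* (1.36), and 3 lower, *Perp* (-2.02), *Pmaip1* (-1.68) and *Btg2* (-1.34), and the median was 0.001.

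Most genes listed for meiotic recombination had few or no tags, with *Psmc3ip* as an exception. Of 23 meiotic recombination genes, 15 had no tag in either library, among them *Dmc1*, which acts in meiotic strand exchange, and *Sycp1*, *Sycp2* and *Sycp3* of the synaptonemal complex. 8 had a tag and 0 were called. The most abundant were *Psmc3ip*, which had 280 and 153 tags, and *Mnd1* with 36 and 46, whose products act together to stimulate strand exchange. *Spo11*, which cuts the DNA in meiosis, had 2 and 0 tags.

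The labels call both samples male germ cells, but 14 of 17 germ cell markers had no tag, *Ddx4*, *Dazl*, *Stra8*, *Kit* and *Zbtb16* among them. The list summed to 66.4 TPM in GC-1spg against 14.8 TPM in GC-2spd (ts), nearly all of it *Uchl1* with 329 and 66 tags. Sertoli cell markers summed to 135 and 41.9 TPM, and most of the first sum was *Wt1* with 620 and 0 tags. The others of that list with a ratio were above 0, *Gata4* with 29 and 138 tags (called higher), *Sox9* with 29 and 46 and *Inha* with 4 and 14. Leydig cell markers summed to 0.789 and 40.8 TPM, with *Nr5a1* at 0 and 188. Fibroblast and myoid markers, of which 11 of 12 had a tag, summed to 2877 and 1754 TPM. *Col1a1*, with 10465 and 2425 tags, made up most of the first sum and was the 1 called lower, while 4 were called higher. These were *Acta2* with 50 and 555 tags, *Vim* with 984 and 2897, *Col3a1* with 50 and 120 and *Pdgfrb* with 0 and 84. Fewer cells of a type and less RNA per cell cannot be told apart in such libraries, and the part of these differences in the levels of the repair genes was not tested.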

How the data were processed

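Each cell line, GC-1spg and GC-2spd (ts), gave 1 DGE library. The authors removed adaptor, low quality and single copy tags and deposited the raw count (copy number) of each tag, 2 at least, and its TPM, which is the count per 1000000 clean tags. The aligner was not given in the sources used here. Tags were matched to the CATG+17 tags of GENCODE M21 transcripts (GRCm38; 141767 transcripts, 55450 genes), on both strands, with at most 1 mismatch and exact matches first. Tags whose best matches all belonged to a single gene were kept, and the sense counts of each gene were added up and divided by the number of clean tags.

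Genes were compared by the Audic-Claverie test, two-sided, with Benjamini-Hochberg adjustment over 14450 genes (FDR at most 0.001, absolute log2 ratio at least 1, 0.01 TPM for a gene at 0). Without replicates the quasi-likelihood test of edgeR could not be fitted. Intervals are exact at 95% (Clopper-Pearson for ratios and shares, Poisson for levels), and since PCR copies cannot be separated they cover counting error only. The calling was tried on simulated counts that held counting error only, so that trial says nothing about the spread between libraries of a line. Python 3.11.15, scipy 1.17.1, R 4.3.3, edgeR 4.0.16 and DESeq2 1.42.0 (size factors only) were used.

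The members and lists were chosen with earlier results of these data known. All members are named. Of the other repair genes, the 5 called per direction with the largest ratios and at least 50 tags are named, except 1 that is not reported here, and of the proliferation, p53 and meiotic lists up to 3 per direction with at least 20. Genes of the marker lists named without a call, and *Rad17*, were chosen after their values were seen. The closing section gives 14 alternative settings chosen at the outset and 1 added after seeing the data.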

Additional observations from a re-analysis of the deposited data

Results flagged for a closer look

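Antisense tags lay outside the main measurement, which sums sense tags, and 3 members had more antisense than sense tags in both libraries. *Bard1* had 2213 antisense tags in GC-1spg against 1031 in GC-2spd (ts), beside 46 sense tags in each. Of these, 2183 and 1015 were copies of 1 tag that matched the antisense strand of *Bard1* with 1 mismatch and ended in a run of 10 A. *Fancl*, the Fanconi ubiquitin ligase, had 31 antisense tags in GC-1spg compared with 15 in GC-2spd (ts), beside 8 and 7 sense tags, and 29 and 12 of them were copies of 1 tag without a mismatch. *Apex1*, which had no unambiguous sense tag in either library, had 6 and 5 antisense tags.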

How the results depend on the processing

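No library could be left out, since each line has 1. The counts of 7 members called higher and 3 called lower stayed within 1.5-fold in all alternatives except these. With the longest transcript per gene 1 member was called lower, *Xrcc2*, because the longest *Ung* transcript holds only 6 and 0 of its tags and *Ercc5* falls to 40 and 15. With an assumed BCV of 0.2 or 0.4 in edgeR's exact test, 0 members were called higher and 0 lower, while over all genes 511 and 489, or 108 and 136, were called. The median log2 ratio of the members lay between 0.27 (TMM) and 0.47 (last CATG site only). The other repair genes called were 7 higher and 7 lower with TMM, 8 and 6 with DESeq2 size factors, and 1 and 0 with a BCV of 0.2.

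No called member changed sign. Signs of members that were not called turned as follows. With TMM scaling and with DESeq2 size factors, which lowered the median of all genes by 0.17 and by 0.16, the log2 ratios of *Bard1*, *Fanca* and *Fanci* were -0.072 and -0.062, that of *Xrcc1* -0.011 and -0.0011, and that of *Ercc2* -0.034 and -0.024. With the longest transcript they were -0.12 for *Fanci*, 0.70 for *Fancl*, -0.90 for *Polb*, 0.52 for *Xpa* and -0.24 for *Chek2*. With sense matches preferred they were 0.70 for *Fancl*, -0.85 for *Trp53bp1* and -0.18 for *Chek2*, with protein-coding transcripts only -0.24 for *Chek2*, and with sense and antisense tags together -0.97 for *Bard1* and 0.066 for *Xpa*. *Chek2* became a call with exact matches only (3.49) and with the last CATG site only (3.35). *Ercc5* was no call in 3 matching alternatives (-1.24, -1.31 and -1.31). The causes were not tested beyond the tag counts given here.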
